A study of Mus musculus with 6 samples.

Results

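Cardiomyocyte genes were examined in mouse aorta RNA: 10 named genes, of the 27815 gene identifiers in each file, were taken by symbol and followed through 6 libraries. The members are the myosin light chains Myl7, Myl4, Myl2 and Myl3, the heavy chain Myh6, the troponins Tnnt2 and Tnni3, the cardiac actin Actc1, the hormone precursor Nppa and the calcium pump inhibitor Sln. All 10 were found in every file. Polyadenylated RNA of C57BL/6 aortas had been sequenced in 3 groups of 2 libraries. The ApoE group was ApoE-/- and 16 months old, kept on chow until its atherosclerotic plaques had calcified. In the CKD group, mice of 8 weeks lost both poles of the left kidney and, after 1 week of recovery, the right kidney. For 4 weeks thereafter their diet held 2% phosphate and their water 0.45% NaCl, a regimen that calcifies the medial layer of the wall. CKD samples are labelled 16 months old, which that schedule does not allow, so their age is uncertain. The Ctrl group was wild type and 2 months old, so a difference of ApoE from Ctrl is one of genotype and age at once. A difference of CKD from Ctrl joins surgery, diet and water, and possibly age, as no group had surgery or diet alone. A difference of ApoE from CKD joins genotype, surgery and diet, and possibly age. Whether a library came from a single animal or several is not in the labels, so SDs and p-values cover the spread among these libraries alone, which may be technical.

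The sarcomere is the contractile unit of striated muscle, in which myosin heads pull on actin filaments under the control of the troponin complex. Each myosin head carries a regulatory and an essential light chain, and the heart uses separate genes for them in its chambers. In mouse atria these are Myl7 (regulatory) and Myl4 (essential), while in ventricles they are Myl2 and Myl3, which slow skeletal muscle also uses. The aortic wall contracts with smooth muscle myosin and actin, and its regulatory light chain gene is Myl9. The wall leaves the heart at the aortic root, so heart muscle is a neighbouring tissue.

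Upstream sequence is shown for the members with the largest differences between groups, Myl7, Tnnt2 and Myh6, and for Nppa, an atrial gene that was at or near 0 in every library. RefSeq windows (GRCm38.p6) of the 250 bases before a start site were matched for 9 of the 10 members, all but Sln. They lie at chr11:5898783-5899032 on the minus strand (Myl7), chr1:135836084-135836333 on the plus strand (Tnnt2, the first of its 2 start sites), chr14:54966608-54966857 on the minus strand (Myh6) and chr4:148000472-148000721 on the plus strand (Nppa). Capitals mark matches to 5 motifs.
Myl7: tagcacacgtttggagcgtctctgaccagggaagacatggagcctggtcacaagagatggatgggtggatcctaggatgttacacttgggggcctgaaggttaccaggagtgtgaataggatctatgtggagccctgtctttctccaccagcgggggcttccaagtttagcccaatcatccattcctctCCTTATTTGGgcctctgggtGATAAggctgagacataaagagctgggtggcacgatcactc
Tnnt2: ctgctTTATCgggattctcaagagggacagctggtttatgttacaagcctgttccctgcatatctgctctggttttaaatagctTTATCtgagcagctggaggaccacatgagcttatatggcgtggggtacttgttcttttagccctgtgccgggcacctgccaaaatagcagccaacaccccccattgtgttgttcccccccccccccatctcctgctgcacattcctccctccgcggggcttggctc
Myh6: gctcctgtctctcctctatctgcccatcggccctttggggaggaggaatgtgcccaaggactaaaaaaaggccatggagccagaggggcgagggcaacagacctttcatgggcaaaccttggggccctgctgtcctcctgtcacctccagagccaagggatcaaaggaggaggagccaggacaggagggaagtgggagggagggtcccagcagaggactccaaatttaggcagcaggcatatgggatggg
Nppa: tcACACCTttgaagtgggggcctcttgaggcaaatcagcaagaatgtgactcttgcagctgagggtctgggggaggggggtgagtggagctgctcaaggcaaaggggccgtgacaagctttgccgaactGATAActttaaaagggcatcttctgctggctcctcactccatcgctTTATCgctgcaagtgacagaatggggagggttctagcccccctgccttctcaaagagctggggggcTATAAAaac
The motifs were searched on both strands. The CArG box and the MEF2 site are given by name. GATAA is the core that one family of zinc finger factors of heart development binds. The letters TATAAA were searched as a core promoter element. Brachyury relatives such as Tbx5 bind the letters AGGTGT. A CArG box reads as one on both strands and was counted once, and a MEF2 site may share letters with TATAAA.

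The Myl7 window held a CArG box, the element that serum response factor binds, from 61 to 52 bases before the start, and GATAA from 41 to 37 bases before it. The Tnnt2 window held GATAA on the other strand at 245 to 241 and at 166 to 162 bases before the start. None of the 5 motifs was found in the Myh6 window. The Nppa window held GATAA at 121 to 117 bases, the same motif on the other strand at 75 to 71, TATAAA at 9 to 4 and AGGTGT on the other strand at 248 to 243. Of 32851 windows of this length, 22.6% held GATAA, 12.4% TATAAA, 11.8% AGGTGT, 1.47% a CArG box and 2.92% a MEF2 site. Of the 11 windows of the members, 5 held GATAA, 2 TATAAA, 2 AGGTGT, 3 a CArG box and 0 a MEF2 site. For some members the RefSeq starts differ from the gene bounds given below. The Myl2 windows end at 122092723 and 122093188, before the gene start at 122100951. The windows of Tnni3, Myh6, Actc1 and Myl3, and the second Tnnt2 window, lie within the gene bounds. Which start heart muscle uses was not tested. A match describes letters and is not a binding site.

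Values are FPKM (reads divided by exon length and library depth), given per library or as mean ± SD of 2 libraries. The libraries held 14.44 to 16.64 M reads. Mitochondrial genes took 9.66% and 10.9% of reads in ApoE libraries, 9.99% and 5.70% in CKD libraries, and 3.13% and 4.19% in Ctrl libraries, and with libraries rescaled without mitochondrial and the 50 most abundant genes the members called below were the same. Values times exon length came close to whole reads, so read numbers are given for low members. To check the labels, the deleted gene Apoe was read and stood at 13.2 and 11.4 FPKM in ApoE libraries and at 756 and 627 FPKM in Ctrl libraries. The members were low beside the smooth muscle light chain gene Myl9, which stood at 267 ± 35.1 FPKM in ApoE, 1505 ± 370.4 in CKD and 2568 ± 117 in Ctrl.

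Together the 10 members took 33.8 and 30.6 of every M reads in the ApoE libraries, 105 and 120 in the CKD libraries, and 29.6 and 31.8 in the Ctrl libraries. Only the CKD libraries stood apart, and Tnnt2 alone gave 1800 of the 3280 member reads in the CKD group. Markers of heart muscle outside the members were uneven. Below 1 FPKM in all libraries were 11 of 20 other sarcomere and Z-disc genes, 7 of 13 calcium handling and conduction genes and 2 of 8 heart transcription factors. Near 0 were, for example, the factor Nkx2-5 (at most 0.0443 FPKM), titin (Ttn, at most 0.0338) and the slow heavy chain Myh7 (at most 0.0726), while Myom1, Tcap and Gata6 were well above the members in Ctrl libraries. Nppa, Sln, Myl2 and Myl3 did not reach 1 FPKM in 2 libraries and were not tested. The other 6 were tested with limma among 14074 genes on log2(FPKM + 1), and a difference was called where the adjusted p (Benjamini-Hochberg) was under 0.05.

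**Figure D1:**
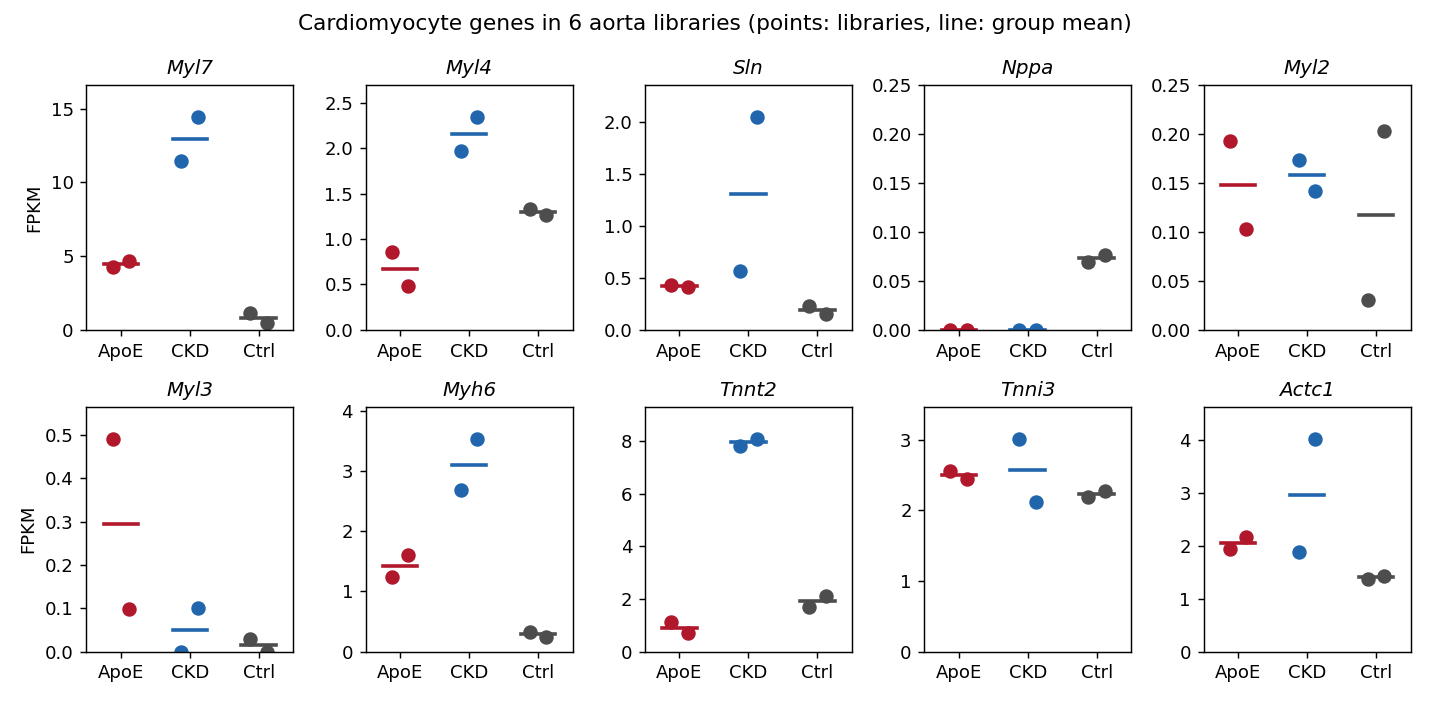
FPKM of each member (vertical axes, each on its own scale from 0) in the ApoE, CKD and Ctrl libraries (points), with lines at the group means. The CKD libraries are the highest for Myl7, Myl4, Myh6 and Tnnt2, while Tnni3 stays between 2.11 and 3.02 FPKM in all 6 libraries and Nppa lies at 0 in the 4 ApoE and CKD libraries.

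Among the atrial forms, Myl7 (ENSMUSG00000020469; GRCm38 chromosome 11, 5896637 to 5898782) differed most. It stood at 4.25 and 4.67 FPKM in ApoE libraries, 11.5 and 14.4 in CKD libraries, and 1.12 and 0.448 in Ctrl libraries. All CKD values lay above all ApoE values, and these above all Ctrl values. In reads these were 40 and 41 in ApoE, 100 and 123 in CKD, and 11 and 4 in Ctrl, so the Ctrl level rests on few reads. Myl7 rose in CKD versus Ctrl by a log2 fold change of 2.98 (SE 0.22, limma adjusted p = 0.0120). It also rose in ApoE versus Ctrl, by 1.64 (SE 0.22, limma adjusted p = 0.00266), and was lower in ApoE than in CKD by a log2 fold change of -1.34 (SE 0.22, limma adjusted p = 0.00633).

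Myl4 (ENSMUSG00000061086; chromosome 11, 104550663 to 104595753), the atrial essential light chain, did not follow Myl7 in ApoE. It stood at 0.852 and 0.479 FPKM in ApoE libraries, 1.97 and 2.34 in CKD libraries, and 1.33 and 1.27 in Ctrl libraries. The 3 groups did not overlap, with ApoE lowest and CKD highest. The difference between ApoE and CKD was called (log2 fold change -0.93, SE 0.17, limma adjusted p = 0.00948), but missed the threshold without ApoE 2 (adjusted p = 0.0524). Those against Ctrl were not, at -0.48 in ApoE (SE 0.17, limma adjusted p = 0.0687) and 0.45 in CKD (SE 0.17, limma adjusted p = 0.148).

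Sln (ENSMUSG00000042045; chromosome 9, 53850164 to 53854560), sarcolipin, restrains the calcium pump of atrial and skeletal muscle. It stood at 0.428 and 0.408 FPKM in ApoE libraries, 0.564 and 2.05 in CKD libraries, and 0.228 and 0.150 in Ctrl libraries. The high CKD mean rests on CKD 2, with 39 reads against 11 in CKD 1. Nppa (ENSMUSG00000041616; chromosome 4, 148000722 to 148002079), the precursor of atrial natriuretic peptide, had 1 read in each Ctrl library and was listed at 0 in the other 4. A count of 0 allows up to 0.218 and 0.233 FPKM in the ApoE libraries and 0.235 and 0.240 in the CKD libraries (3 reads, counting error only). Nppa is thus not distinguishable between groups at this depth. It shares 532 of its 865 exon bases with Gm13054 on the other strand, and the library kit did not mark strand.

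Both ventricular light chains were near the limit of detection. Myl2 (ENSMUSG00000013936; chromosome 5, 122100951 to 122113472) had 6 and 3 reads in ApoE libraries, 5 and 4 in CKD libraries, and 1 and 6 in Ctrl libraries. Its level did not exceed 0.203 FPKM, and the groups overlapped. Myl3 (ENSMUSG00000059741; chromosome 9, 110741861 to 110769798) had 16 and 3 reads in ApoE libraries, 0 and 3 in CKD libraries, and 1 and 0 in Ctrl libraries. The highest value, 0.491 FPKM, was in ApoE 1, and the other ApoE library lay within the range of CKD.

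Set side by side in each library, the atrial form exceeded the ventricular form in FPKM in all 6. Myl7 over Myl2 was 22.0 and 45.2 in ApoE libraries, 66.1 and 102 in CKD libraries, and 36.4 and 2.20 in Ctrl libraries. The 95% counting intervals (Clopper-Pearson on the reads) ran from 9.28 to 63.6 and from 14.4 to 228 in ApoE, from 27.4 to 208 and from 38.7 to 379 in CKD, and from 5.28 to 1565 and from 0.457 to 9.29 in Ctrl. The CKD ratios lay above all others, and in Ctrl 2 the interval included 1. With 2 libraries a group, an exact two-sided permutation test cannot give a p below 0.333. The log2 ratio was higher in CKD than in Ctrl by 3.20 and lower in ApoE than in CKD by a difference of -1.38, each at that smallest p of 0.333 (exact permutation). For ApoE against Ctrl the difference was 1.82 (exact permutation p = 0.667), and it was -0.20 without Ctrl 2 and 3.84 without Ctrl 1. The CKD and Ctrl difference was 1.17 without Ctrl 2 and 5.22 without Ctrl 1, and the ApoE and CKD difference was -0.86 without ApoE 1. The same reads were also divided by the length of the main transcript of each gene in place of all annotated exons. The Ctrl 2 ratio was then 1.00 and the other 5 lay between 10.0 and 46.3.

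Myl4 over Myl3 was 1.74 and 4.85 in the ApoE libraries, with counting intervals from 0.991 to 3.22 and from 1.52 to 24.7. In CKD 2 it was 23.1 (7.75 to 113) and in Ctrl 1 it was 45.4 (7.97 to 1810.5). Myl3 had no read in CKD 1 and Ctrl 2, where the intervals start at 15.9 and 10.4. The ApoE ratios were the lowest, with fewer Myl4 reads and, in ApoE 1, more Myl3 reads than in any other library. By main transcript lengths, with the same reads, these ratios were 3.91 and 10.9 in ApoE libraries, 52.0 in CKD 2 and 102 in Ctrl 1. The counting intervals of most libraries overlapped across groups in both pairs: for Myl7 over Myl2 those of CKD overlapped those of ApoE and Ctrl 1, and for Myl4 over Myl3 that of ApoE 2 overlapped those of CKD 2 and Ctrl 1.

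**Figure D2:**
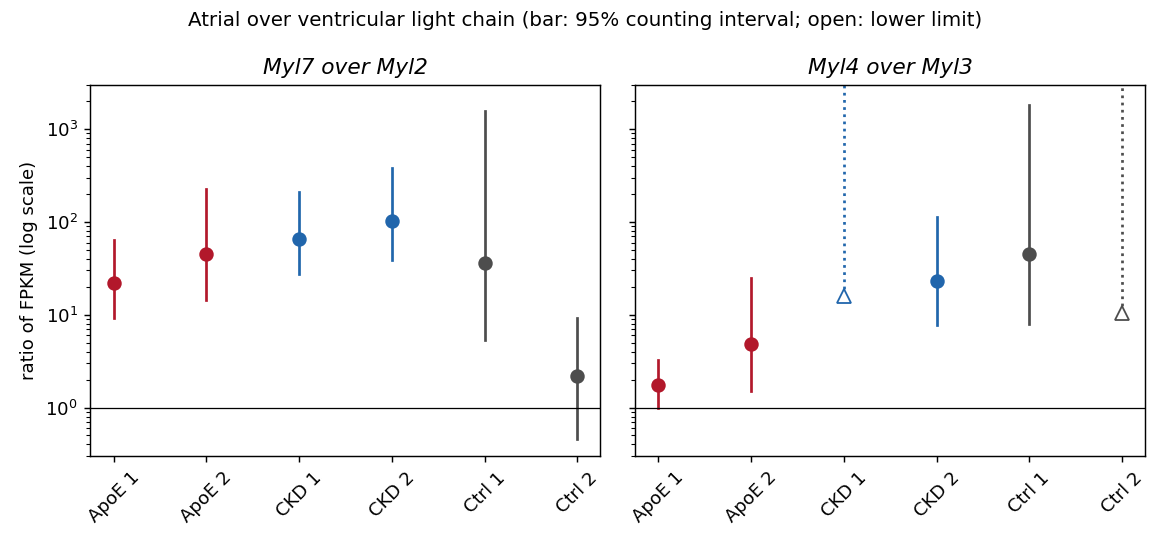
Ratio of FPKM of the atrial to the ventricular light chain (vertical axis, log scale) in each library, for the regulatory pair (left) and the essential pair (right). Bars are 95% counting intervals, and open triangles mark the lower limit where the ventricular gene had no read. Myl7 over Myl2 is highest in the CKD libraries at 66.1 and 102, and Myl4 over Myl3 is lowest in the ApoE libraries at 1.74 and 4.85.

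Among the members that atrium and ventricle share, Tnnt2 (ENSMUSG00000026414; chromosome 1, 135836354 to 135852260), cardiac troponin T, which ties the troponin complex to tropomyosin, moved in both directions. It stood at 1.13 and 0.694 FPKM in ApoE libraries, 7.80 and 8.09 in CKD libraries, and 1.71 and 2.11 in Ctrl libraries. The groups did not overlap, and the CKD libraries lay close together. Tnnt2 rose in CKD versus Ctrl by a log2 fold change of 1.62 (SE 0.16, limma adjusted p = 0.0197). It fell in ApoE versus Ctrl by 0.62 on the log2 scale (SE 0.16, limma adjusted p = 0.0270). The ApoE value was lower than the CKD value by a log2 fold change of -2.24 (SE 0.16, limma adjusted p = 0.000774).

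Myh6 (ENSMUSG00000040752; chromosome 14, 54941921 to 54966927), the fast heavy chain that dominates the adult mouse heart, went with Myl7. It stood at 1.24 and 1.60 FPKM in ApoE libraries, 2.67 and 3.53 in CKD libraries, and 0.331 and 0.239 in Ctrl libraries. CKD was highest and Ctrl lowest, without overlap. Myh6 rose in CKD versus Ctrl by a log2 fold change of 1.67 (SE 0.18, limma adjusted p = 0.0213) and in ApoE versus Ctrl by 0.91 (SE 0.18, limma adjusted p = 0.00933), and was lower in ApoE than in CKD by a log2 fold change of -0.76 (SE 0.18, limma adjusted p = 0.0189). The call in ApoE versus Ctrl was lost without Ctrl 2 (adjusted p = 0.0571) or ApoE 2 (0.0613), and the call between ApoE and CKD without ApoE 1 (0.0917), ApoE 2 (0.0582) or CKD 2 (0.0717). Its values lay up to 0.435 of a read from whole reads, against at most 0.195 of a read for any other member. Myh6 and its neighbour Myh7 are close copies, and how reads were divided between them was not tested, so the Myh6 level is uncertain.

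Cardiac troponin I did not follow troponin T. Tnni3 (ENSMUSG00000035458; chromosome 7, 4518305 to 4524229), the inhibitory subunit, stood at 2.55 and 2.45 FPKM in ApoE libraries, 3.02 and 2.11 in CKD libraries, and 2.18 and 2.27 in Ctrl libraries. The CKD values spanned those of both other groups. Against Ctrl its log2 fold change was 0.12 in ApoE (SE 0.16, limma adjusted p = 0.590) and 0.13 in CKD (SE 0.16, limma adjusted p = 0.616), and between ApoE and CKD it was -0.015 (SE 0.16, limma adjusted p = 0.949). It shares 86 exon bases with Dnaaf3 on the same strand.

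Actc1 (ENSMUSG00000068614; chromosome 2, 114047282 to 114053548), cardiac alpha actin, stood at 1.94 and 2.16 FPKM in ApoE libraries, 1.88 and 4.02 in CKD libraries, and 1.37 and 1.43 in Ctrl libraries. Ctrl was lowest, and the spread was widest in CKD, where CKD 2 had 94 reads and CKD 1 had 45. It was not called in any comparison, with log2 fold changes against Ctrl of 0.34 in ApoE (limma adjusted p = 0.333) and 0.66 in CKD (limma adjusted p = 0.164), and -0.32 between ApoE and CKD (limma adjusted p = 0.381; SE 0.27 each). Without CKD 1 it was called lower in ApoE relative to CKD, at -0.72 on the log2 scale (limma adjusted p = 0.0262).

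Counted over the 6 tested members, 2 rose and 1 fell in ApoE versus Ctrl, with a median log2 fold change of 0.23 against -0.07 over all genes. Of all 14074 tested genes 44.1% were called in that comparison (19.8% higher, 24.3% lower), so 3 of 6 members is near the background. In ApoE versus CKD 4 members were lower (Myl7, Myl4, Myh6 and Tnnt2), with a median of -0.84 against -0.04 over all genes, where 39.7% of all genes were called, 18.5% higher and 21.2% lower. In CKD versus Ctrl 3 members rose (Myl7, Myh6 and Tnnt2) and none fell, with a median of 1.14 against -0.03 over all genes. Of all tested genes 5.44% were called there, 2.23% higher and 3.21% lower. Myl7 and Myh6 passed the filter through the ApoE and CKD libraries, in both of which they are higher than in Ctrl, so the counts are a description. The comparisons share libraries and are not independent of each other.

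The calls in CKD versus Ctrl depended on single libraries, and over all genes 766 were called there, against 0 to 2366 with 1 library left out, so calls of other genes in that comparison rest on the same libraries. Myl7 kept its call without CKD 1 or CKD 2, but not without Ctrl 1 (adjusted p = 0.0583), Ctrl 2 (0.0936), ApoE 1 (0.0533) or ApoE 2 (0.0517). Tnnt2 and Myh6 lost theirs without any single library but CKD 2, with adjusted p from 0.0517 to 0.132, while the log2 fold changes stayed between 2.71 and 3.26 for Myl7, 1.52 and 1.72 for Tnnt2, and 1.52 and 1.82 for Myh6. With the replicate number as a block, Myl7 alone was called there, and no member was called without the filter on low values or with the ApoE libraries left out of the fit. The fall of Tnnt2 in ApoE versus Ctrl was likewise lost without Ctrl 1 (adjusted p = 0.0767), Ctrl 2 (0.150) or ApoE 2 (0.116), and with the replicate block (0.0547).

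**Figure D3:**
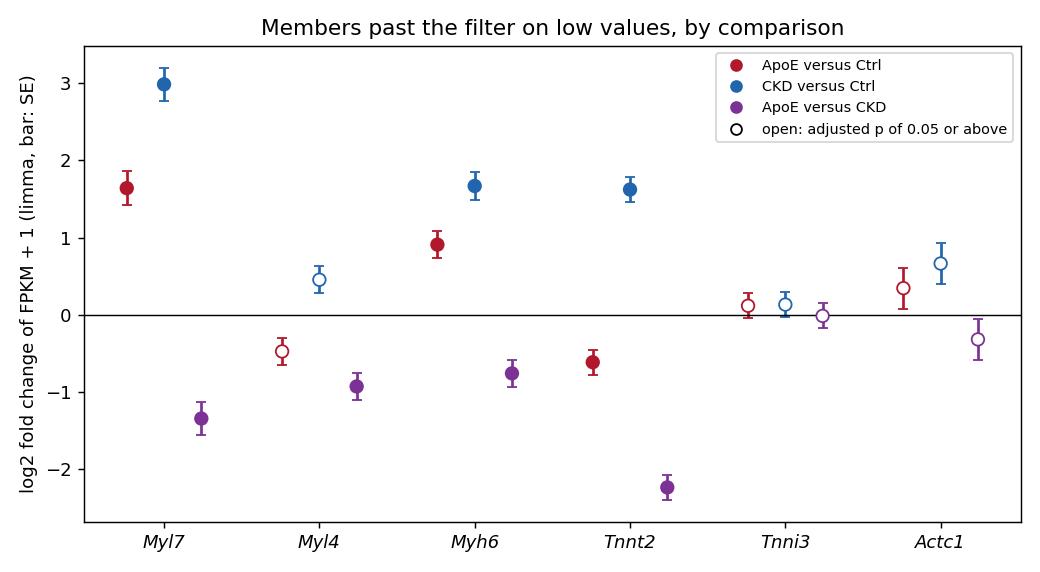
Log2 fold change of FPKM + 1 (vertical axis, bars: limma SE) of the 6 tested members in ApoE versus Ctrl, CKD versus Ctrl and ApoE versus CKD. Filled points were called at an adjusted p below 0.05 and open points were not. Myl7 and Myh6 lie above 0 in both models against Ctrl, while Tnnt2 lies at 1.62 in CKD and at -0.62 in ApoE.

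Within a group the order of the members differed. By FPKM, Tnni3 (2.50 ± 0.0774) and Actc1 (2.05 ± 0.158) followed Myl7 (4.46 ± 0.297) in ApoE. In CKD, Myl7 (12.9 ± 2.10) led Tnnt2 (7.95 ± 0.207), and Myh6 (3.10 ± 0.608), Actc1 (2.95 ± 1.51), Tnni3 (2.57 ± 0.637) and Myl4 (2.16 ± 0.265) followed, of which Myh6 and Myl4 did not overlap and the other pairs did. In Ctrl, Tnni3 (2.23 ± 0.0628) and Tnnt2 (1.91 ± 0.283) led, with Actc1 (1.40 ± 0.0387) and Myl4 (1.30 ± 0.0474) next. The library values of Tnni3 lay above those of Tnnt2 there, although the ranges of mean ± SD overlapped. FPKM divides by all annotated exons, which for Tnnt2 sum to 7752 bases against 1200 in its main transcript, and for Myl4 to 4637 against 943. If every read came from the main transcripts, Tnnt2 would lead at 51.3 ± 1.34 FPKM in CKD and 12.4 ± 1.83 in Ctrl. In ApoE, Tnnt2 (5.88 ± 1.97) and Tnni3 (5.66 ± 0.175) would then not separate. Differences between groups for one gene do not depend on that length, apart from the pseudocount.

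Of 20 other sarcomere and Z-disc genes, 9 were tested. In CKD versus Ctrl 3 of the 9 were called, all lower (median log2 fold change -0.55; 3.21% of all genes were called lower). In ApoE versus Ctrl 7 fell (median -3.54; 24.3% of all genes), and 7 were lower in ApoE than in CKD (median -2.50; 21.2% of all genes). Some members of the list went the other way without a call. Ankrd1, a stress-responsive Z-disc protein, stood at 17.3 and 15.7 FPKM in ApoE libraries, 6.25 and 14.7 in CKD libraries, and 8.58 and 4.49 in Ctrl libraries (ApoE versus Ctrl log2 fold change 1.27, SE 0.42, limma adjusted p = 0.0517). Mybpc3, cardiac myosin binding protein C, was too low to be tested, at 0.377 and 0.436 FPKM in ApoE libraries, 0.130 and 0.383 in CKD libraries, and 0.0866 and 0.0635 in Ctrl libraries. Tcap, the titin cap protein, changed by -4.76 in ApoE (SE 0.22, limma adjusted p = 0.000182) and -1.65 in CKD (SE 0.22, limma adjusted p = 0.0274) against Ctrl. Myom1, myomesin of the M-band, changed by -4.28 in ApoE (SE 0.17, limma adjusted p = 0.000172) and -0.90 in CKD (SE 0.17, limma adjusted p = 0.0434). Both were far above the members in Ctrl libraries, where Myom1 stood at 253 and 229 FPKM and Tcap at 133 and 134 FPKM, while Myl2 and Myl3 were near 0 there. Actn2, the alpha-actinin of Z-discs, stood at 5.42 and 5.67 FPKM in CKD libraries, against 5.43 and 6.79 in Ctrl libraries, and was not called between them.

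Of 13 genes of cardiac calcium handling and conduction, 6 were tested. In ApoE versus Ctrl, where 24.3% of all genes fell, 4 fell (Hrc, Ryr2, Cacna1c and Atp2a2), and in CKD versus Ctrl only Hrc, a calcium-binding protein of the sarcoplasmic reticulum, did (log2 fold change -1.49, SE 0.25, limma adjusted p = 0.0380). Ryr2, the calcium release channel of heart muscle, stood at 0.168 and 0.0678 FPKM in ApoE libraries, 2.41 and 3.42 in CKD libraries, and 2.98 and 3.30 in Ctrl libraries. Some genes of the list that were too low to be tested went the other way in ApoE, among them Casq2 and Trdn. Casq2 stood at 0.619 and 0.344 FPKM in ApoE libraries against 0.132 and 0.169 in Ctrl libraries. Trdn stood at 0.255 and 0.173 FPKM in ApoE libraries against 0.0321 and 0.0283 in Ctrl libraries. In ApoE versus Ctrl all 15 genes of the smooth muscle contractile list fell (median -3.38), and the summed level of that list was 1427 and 1229 FPKM in ApoE libraries, 5947 and 9322 in CKD libraries, and 13463 and 12242 in Ctrl libraries. The falls of Tnnt2, of the sarcomere genes and of the calcium genes in ApoE went with that lower smooth muscle level, whose part in them was not tested. In bulk RNA fewer cells of a type and less RNA per cell cannot be told apart.

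Among other atrial markers Sbk2, a kinase gene of atrial muscle, was high in ApoE. It stood at 1.97 and 2.31 FPKM in ApoE libraries, 0.150 and 0.0440 in CKD libraries, and 0.0382 and 0.0420 in Ctrl libraries. It rose in ApoE versus Ctrl by a log2 fold change of 1.59 (SE 0.17, limma adjusted p = 0.00120) and exceeded CKD by 1.52 (SE 0.17, limma adjusted p = 0.00200), a pattern unlike that of Myl7. Sbk2 passed the filter only through the ApoE libraries, where it is high, so these tests add little to the levels. Gja5, a gap junction gene of atrial muscle and of arterial endothelium, stood at 19.7 and 18.4 FPKM in ApoE libraries, 1.64 and 5.48 in CKD libraries, and 19.2 and 12.7 in Ctrl libraries. CKD was the low group, called against ApoE (ApoE versus CKD log2 fold change 2.28, SE 0.43, limma adjusted p = 0.00999) but not against Ctrl (CKD versus Ctrl -2.01, SE 0.43, limma adjusted p = 0.0541). Kcna5 was tested and not called in any comparison, at 0.745 and 1.10 FPKM in ApoE libraries, 1.94 and 0.605 in CKD libraries, and 0.693 and 0.669 in Ctrl libraries. The atrial markers Bmp10, Kcnj3 and Tbx5 were below 1 FPKM in all libraries and were not tested. Tbx5 was lowest in Ctrl, as Myl7 was, at 0.309 and 0.331 FPKM in ApoE libraries, 0.940 and 0.281 in CKD libraries, and 0.0386 and 0.0848 in Ctrl libraries. Of the ventricular markers only Hey2 was tested. Hey2 is also a gene of arteries, and it fell in ApoE versus Ctrl by 1.03 on the log2 scale (SE 0.19, limma adjusted p = 0.00824).

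Of 8 heart transcription factors, 5 were tested, and Hand2 was the one that rose in CKD versus Ctrl. It stood at 1.68 and 1.06 FPKM in ApoE libraries, 5.75 and 5.54 in CKD libraries, and 1.07 and 1.94 in Ctrl libraries, so only CKD stood apart (log2 fold change 1.43 against Ctrl, SE 0.22, limma adjusted p = 0.0342). Gata4, below the filter, stood at 0.0643 and 0.190 FPKM in ApoE libraries, 0.606 and 0.656 in CKD libraries, and 0.0154 and 0.152 in Ctrl libraries. In ApoE versus Ctrl 4 of the 5 fell, Mef2d (-1.21), Gata6 (-1.22), Mef2c (-1.05) and Mef2a (-0.65), where 24.3% of all genes were called lower.

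Markers of mesothelium, the cell sheet that covers the heart, lung and vessels, moved in the same libraries as Myl7. All 8 were measured and 7 were tested, of which 6 rose in CKD versus Ctrl (median log2 fold change 2.20) and 4 in ApoE versus Ctrl (median 0.96), and 6 were lower in ApoE than in CKD (median -1.62). Over all genes 2.23% rose in CKD versus Ctrl, 19.8% rose in ApoE versus Ctrl and 21.2% were lower in ApoE than in CKD. Upk3b, Msln, Upk1b, Krt19 and Lrrn4 passed the filter only through the libraries where they are high, so the counts are a description. The list's summed level was 14.3 and 8.59 FPKM in ApoE libraries, 71.0 and 56.0 in CKD libraries, and 2.63 and 3.95 in Ctrl libraries. Upk3b stood at 3.25 and 1.43 FPKM in ApoE libraries, 22.7 and 16.8 in CKD libraries, and 0.119 and 0.318 in Ctrl libraries. Wt1, a defining factor of epicardium and mesothelium, stood at 0.203 and 0.0434 FPKM in ApoE libraries and 1.09 and 0.604 in CKD libraries, and was at 0 in both Ctrl libraries. The summed white adipocyte level also varied, at 3001 and 3069 FPKM in ApoE libraries, 7307 and 2432 in CKD libraries, and 380 and 932 in Ctrl libraries. The part of these cells in the Myl7, Myh6 and Tnnt2 values was not tested.

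**Figure D4:**
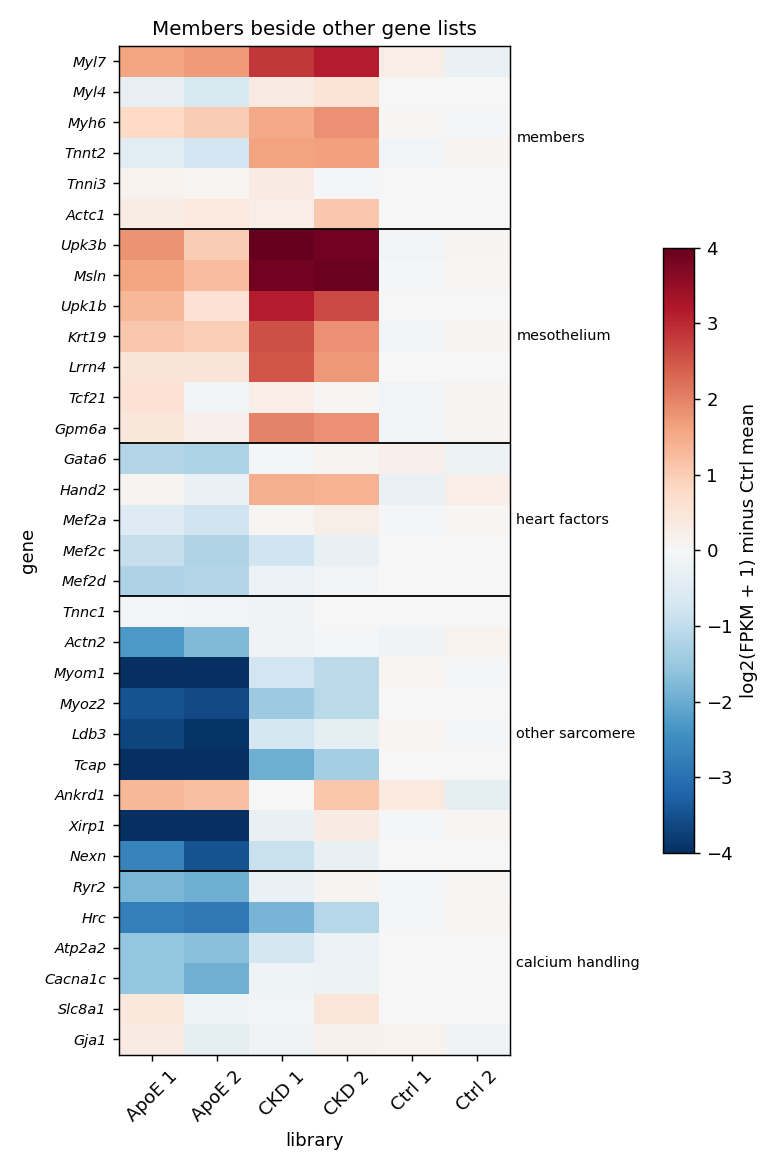
Heat map of log2(FPKM + 1) minus the Ctrl mean (colour, red higher and blue lower, clipped at 4 units either way) for tested genes (rows) in the 6 libraries (columns). Myl7, Myh6 and most mesothelial markers are red in both models and darkest in CKD, while Tcap, Myom1 and Ryr2 are blue in ApoE.

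The genes whose pattern was most like that of Myl7 over the 6 libraries were sought among 1619 tested genes with a log2 range of at least 2. Among the most alike were Igfbp3 (Pearson r = 0.97), Msln (0.96), Gpt2 (0.96) and Upk3b (0.94), and 14 genes exceeded 0.9. Igfbp3 binds insulin-like growth factors, while Msln and Upk3b are on the mesothelial list. Msln, mesothelin, stood at 2.94 and 2.13 FPKM in ApoE libraries, 18.4 and 19.2 in CKD libraries, and 0.256 and 0.406 in Ctrl libraries. Most like Tnnt2 were Adamts15 (r = 0.996), Sphk1 (0.995), Arhgef37 (0.99), Slc10a6 (0.98) and Pgf (0.98), and 51 genes exceeded 0.9. Adamts15, a secreted metalloprotease, stood at 3.65 and 1.68 FPKM in ApoE libraries, 26.8 and 27.2 in CKD libraries, and 4.47 and 6.36 in Ctrl libraries, so like Tnnt2 it was highest in CKD and lowest in ApoE. Among the members, Myl7 and Myh6 had r = 0.99 and Myl4 and Tnnt2 had r = 0.95, whereas Myl7 and Tnnt2 had r = 0.64. These correlations describe 6 libraries in 3 groups and share their depth scaling.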

How the data were processed

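RNA of 6 aorta libraries, 2 in each of 3 groups, was measured by poly(A) RNA-seq. The values deposited by the authors were taken as FPKM from their size and steps, with no unit named in the headers or labels. Identifiers preceded values within a single column in 5 of the files. GRCm38, HISAT2 2.1.0, Bowtie2 2.2.3 and TopHat2 appear without roles, per the submitters' processing notes. How reads were counted, and on which annotation, is not given in the sources used here. The kit named in the labels' protocols does not mark strand.

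Symbols and summed exon lengths came from GENCODE M21 (27730 of 27815 identifiers matched). Among values below about 20 reads, 95.2% to 95.8% were whole reads within 0.05 read, which gave depths of 14.44 to 16.64 M reads. The libraries of a group gave a chi-square per degree of freedom over reads of 39.6 in ApoE, 68.5 in CKD and 17.9 in Ctrl, so none was a copy of another.

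Genes that reached 1 FPKM in 2 or more libraries (14074) were tested as log2(FPKM + 1) in one limma 3.58.1 model of group means (R 4.3.3, variance trend, robust spread), with Benjamini-Hochberg adjustment over all of them. A fold change on this scale understates the change of low genes. The fit was tested on simulated data, with changes planted only in genes of higher mean level than any member. It therefore does not show how well changes are found at the members' levels. The members and gene lists were chosen with earlier results of these data known. Genes outside the members were named by rule: up to 4 called genes with the smallest adjusted p from a list, or its 2 most abundant genes, and the 5 genes most correlated with Myl7 and with Tnnt2. Actn2, Ankrd1, Mybpc3, Gata4, Wt1, Nkx2-5, Ttn, Myh1, Myh2, Myh4, Myh7, Myl9, Bmp10, Kcnj3 and Ucp1 were added after their values were seen. So were Casq2, Trdn, Kcna5, Tbx5, Mylpf and Myl1. Some genes that the rule or the lists hold are not reported here. The alternatives were other pseudocounts, no filter, 3 other scalings, pairwise fits, no trend, a replicate block and leaving out each library.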

Additional observations from a re-analysis of the deposited data

How the results depend on the processing

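The number of members called in ApoE versus Ctrl, 3, was 1 to 3 when single libraries were left out (1 without Ctrl 2 or ApoE 2). In CKD versus Ctrl, 3 members were called, against 0 without the filter, 0 when ApoE was left out of the fit and 1 with the replicate block, and 0 to 3 with single libraries left out. Without the filter more genes were adjusted for, and pairwise fits held fewer libraries. Both settings also changed how the spread was estimated. The cause of the lost calls was not tested. In ApoE versus CKD, 4 were called, and 2 to 5 with single libraries left out. Without the filter Nppa was called lower in ApoE versus Ctrl, on 0 reads against 1 in each Ctrl library, and Tnnt2 was not. The scalings and pseudocounts changed none of the 3 counts.

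The replicate numbers 1 and 2 share only a number in the labels. Deviations of same-numbered libraries from their group means correlated at 0.05 (ApoE and Ctrl), -0.23 (CKD and Ctrl) and -0.10 (ApoE and CKD). With the replicate block 2 members were called in ApoE versus Ctrl and 4 in ApoE versus CKD. Of the single-gene values under alternatives, 231 kept direction and side of the threshold, 33 missed it, 1 passed it and 5 changed sign. The sign changes were of uncalled values. With median-ratio scaling Tnni3 was at 0.021 in ApoE versus CKD. With single libraries left out, Tnni3 ranged from -0.052 (without CKD 1) to 0.31 in CKD versus Ctrl and from -0.20 to 0.17 in ApoE versus CKD, with 0.0074 without ApoE 2, and Actc1 ranged from -0.72 to 0.082 (without CKD 2) in ApoE versus CKD. The log2 Myl7 over Myl2 difference ranged with libraries left out from -0.20 to 3.84 for ApoE versus Ctrl, from 1.17 to 5.22 for CKD versus Ctrl and from -1.90 to -0.86 for ApoE versus CKD. Depth limits Nppa, Myl2 and Myl3, at 0 to 16 reads a library.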

Other observations

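Of 20 genes of skeletal muscle 8 were tested. Mylpf and Mybpc2 passed the filter only through the Ctrl libraries, where they are high, so the counts that follow are a description. In ApoE versus Ctrl 5 fell (24.3% of all genes did), and in CKD versus Ctrl 1 fell (3.21% of all genes did), Casq1, a calcium store protein, which stood at 5.79 and 8.91 FPKM in CKD libraries against 39.0 and 43.2 in Ctrl libraries (log2 fold change -2.36, SE 0.20, limma adjusted p = 0.0145). In ApoE versus CKD 3 of the 8 were lower and 1 was higher (21.2% and 18.5% of all genes). Tnnt3, the fast troponin T, was lower in ApoE relative to CKD (log2 fold change -1.60, SE 0.18, limma adjusted p = 0.00223). It stood at 0.713 and 0.935 FPKM in ApoE libraries against 5.00 and 4.07 in CKD libraries. Tnni2 was higher in ApoE than in CKD (log2 fold change 1.17, SE 0.23, limma adjusted p = 0.0109). It passed the filter without the CKD libraries, where it is low. Myl1 stood at 5.63 and 4.22 FPKM in ApoE libraries and 0.840 and 1.97 in Ctrl libraries, without a call. Of the adult fast heavy chain genes, Myh1 and Myh2 did not exceed 0.0833 FPKM in any library, while Myh4 stood at 0.0104 and 0.0112 FPKM in ApoE libraries, at 0 in both CKD libraries, and at 0.569 and 0.626 in Ctrl libraries.

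Of 8 energy genes of heart muscle 7 were tested. In ApoE versus Ctrl Cox8b, Cox7a1 and Cox6a2, subunits of cytochrome oxidase, rose and Ckm and Slc25a4 fell. Over all genes 19.8% rose and 24.3% fell there. Ckm passed the filter only through the Ctrl libraries, where it is high. Cox6a2 passed without the Ctrl libraries, where it is low, so these calls are a description. Cox8b stood at 258 and 340 FPKM in ApoE libraries, 227 and 92.3 in CKD libraries, and 23.0 and 69.5 in Ctrl libraries. Ucp1, which marks brown fat, stood at 236 and 147 FPKM in ApoE libraries, 539 and 178 in CKD libraries, and 26.3 and 77.4 in Ctrl libraries, and was not called in any comparison. No heart energy gene was called in CKD versus Ctrl. Of the 5 genes of the brown adipocyte list, all tested, Ppargc1a alone was called there, where 2.23% of all genes rose. Ppargc1a, a coactivator of mitochondrial genes, rose by a log2 fold change of 2.83 (SE 0.25, limma adjusted p = 0.0145). It stood at 13.2 and 8.23 FPKM in CKD libraries against 0.419 and 0.832 in Ctrl libraries. It too passed the filter without the Ctrl libraries, where it is low.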
